A study of Mus musculus with 12 samples.

Results

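The genes described here set the level of cyclic AMP in a cell or carry its signal to the transcription factor CREB. They are 10 listed genes: Adcy7, which codes for an adenylyl cyclase, the phosphodiesterase genes Pde4a, Pde4b, Pde4d, Pde3b, Pde7a and Pde8a, the kinase gene Sik1, and the transcription factor genes Creb1 and Crem. They were chosen by symbol in the annotation of the array, with the brightest probe set standing for a gene. Of the 10 genes, 8 had a probe set, each of them a single one, out of 19505 genes measured. Pde4d and Crem were not analysed here.

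Transcript levels were measured in RAW 264.7 cells, a macrophage-like mouse line of tumour origin, on 12 Affymetrix arrays in 4 groups of 3. The first group received inulin, a plant fructan, at 500 µg/mL and TsSP at 50 µg/mL together with lipopolysaccharide (LPS) at 500 ng/mL. The second received TsSP and LPS, the third inulin and LPS, and the fourth LPS alone, at those same doses and for 6 hours of culture. TsSP is named as in the labels, and the study's design text speaks of helminth products. LPS, the bacterial membrane component that activates macrophages, was thus present in all 4 groups, and unstimulated cells were not analysed here. The labels do not tell whether the arrays within a group come from separate cultures. The p-values therefore rest on the spread among these 12 arrays alone, which may be technical. Since the cells are 1 established line, the values describe that line.

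Adenylyl cyclases make cAMP when stimulatory G proteins act on them, and phosphodiesterases break it down. Cyclic AMP activates protein kinase A, which phosphorylates CREB and also the salt-inducible kinases, whose inhibition lets the CRTC coactivators reach CREB in the nucleus. In macrophages a rise in cAMP is known to lower the output of tumour necrosis factor after LPS and to raise that of interleukin 10.

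Of the 8 genes measured, 3 had an adjusted p under 0.05 in limma for TsSP both without and with inulin. Of all 19505 genes, 18.1% did so without inulin and 16.7% with it. Among the 9022 genes above background (defined below) in a group, as all 8 genes were, the shares were 34.9% and 32.4%. The share doing so in both comparisons was not counted. Pde4b was lower with TsSP, and Adcy7 and Pde8a were higher. The call of Pde8a without inulin was kept in 14 of 19 alternative analyses. Pde4a was lower and Sik1 higher in the comparison without inulin, close to the threshold of an adjusted p of 0.05. Inulin gave no call for any of the 8 genes, and 0% of all 19505 genes were called for it.

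The array had the pattern of a macrophage line. All 10 measured macrophage markers lay above background on all 12 arrays, where background is the brightest of 23 background probes of an array. No measured T cell, B cell, epithelial, neutrophil and mast cell or dendritic cell marker did so in any group, and of 3 fibroblast markers 1 did, Dcn. Arrays had medians of 5.16 to 5.30 log2 signal and 8771 to 9059 genes above background. Replicate 1 of LPS alone had the lowest array median and stood apart in its background probes, whose median was 4.99 against 5.20 to 5.43 on the other 11 arrays, so the adjusted p without it is given beside each named TsSP call that was lost without it. The plot of log2 signal by array shows the 8 genes in the 4 groups.

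**Figure D1:**
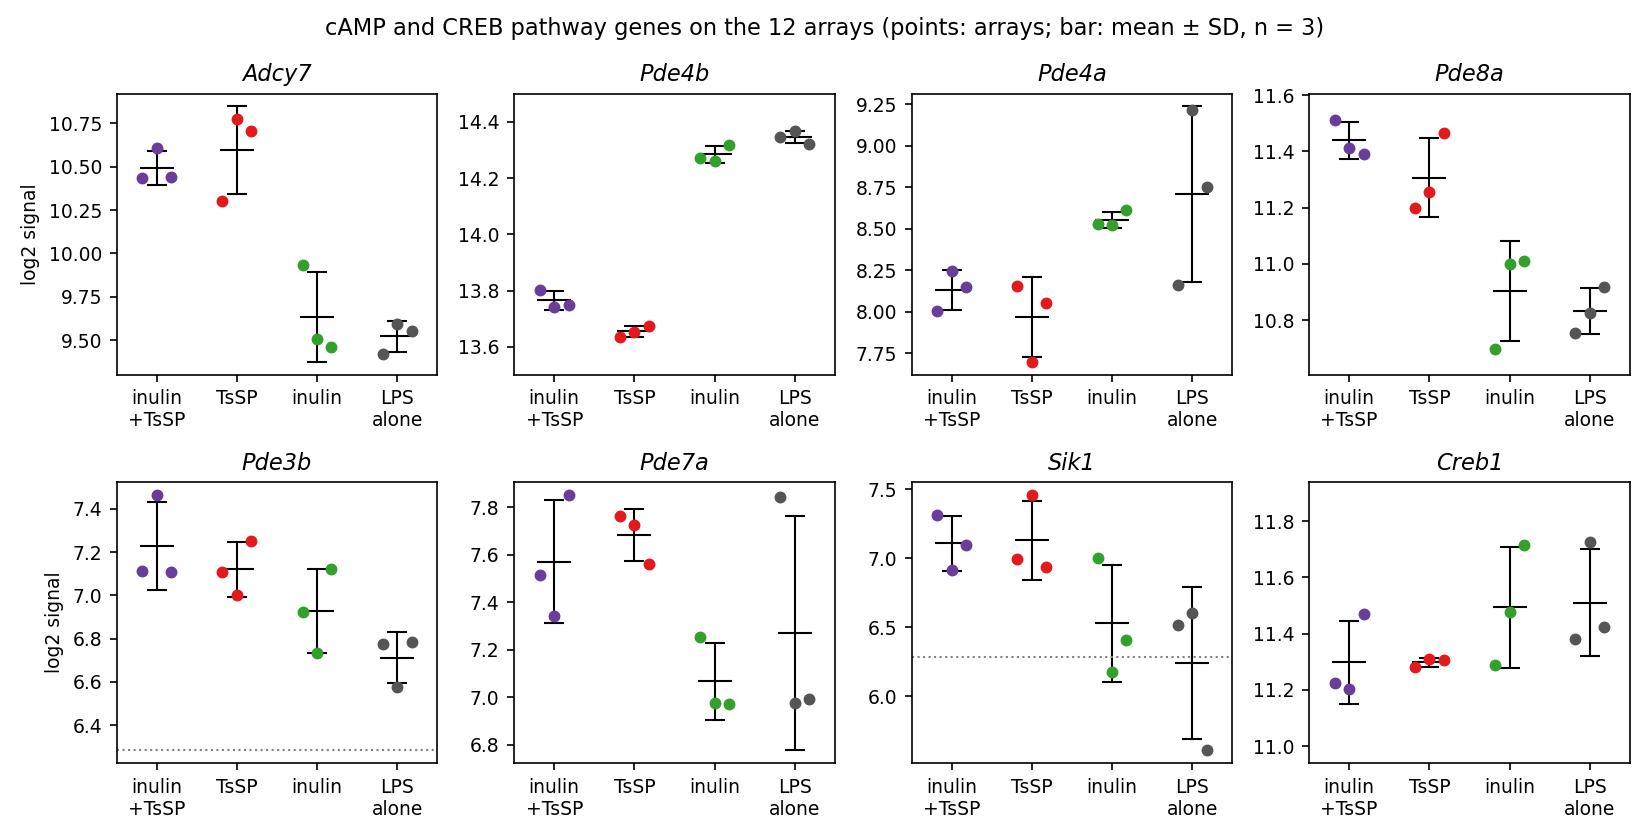
Log2 signal (vertical axis) of 8 cAMP and CREB pathway genes on each of 12 arrays, by treatment group; points are arrays, bars the mean ± SD (n = 3), and each panel has its own axis. The dotted grey line in the Pde3b and Sik1 panels is the highest background level of an array, 6.28. The 6 arrays with TsSP lie apart from the 6 without it for Adcy7, Pde4b and Pde8a. The share of all genes for which they do so was not counted.

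Stretches before annotated starts are shown for the 4 genes with a window that holds the core of the cAMP response element, because this short sequence is the one CREB is known to bind. RefSeq promoter windows of assembly GRCm38.p6, which run from 250 bases before to 50 after a start, were matched to 5 of the 8 genes by symbol, 12 windows in all. The motifs searched on both strands were the full element TGACGTCA, whose 2 ends each hold the core, and the core motif TGACG, written CGTCA on the opposite strand. Each line below gives the 100 bases before 1 annotated start on the plus strand, 5′ to 3′, with the core motif in capitals.
Pde4b, chr4:102421455-102421554: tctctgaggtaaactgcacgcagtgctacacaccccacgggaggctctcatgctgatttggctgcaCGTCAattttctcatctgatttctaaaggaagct
Adcy7, chr8:88282892-88282991: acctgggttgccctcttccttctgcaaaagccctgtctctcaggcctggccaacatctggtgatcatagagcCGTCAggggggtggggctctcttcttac
Pde8a, chr7:81213165-81213264: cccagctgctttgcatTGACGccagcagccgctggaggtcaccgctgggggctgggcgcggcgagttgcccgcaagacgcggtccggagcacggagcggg
Pde4a, chr9:21184001-21184100: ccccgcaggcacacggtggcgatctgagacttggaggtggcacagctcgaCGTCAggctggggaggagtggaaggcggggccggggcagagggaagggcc

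The core motif began 34 bases before the start of Pde4b, 28 before that of Adcy7, 84 before that of Pde8a and 50 before that of Pde4a. It was in 4 of the 12 windows (33.3%), against 20.8% of all 32851 windows in the table. The full element was in 0 of the 12 windows, against 1.79% of all windows. Pde4b has 4 windows, Adcy7 and Pde4a 3 each, and Pde8a and Creb1 1 each, and the core motif was in only 1 window of each of the 4 genes shown. The probe sets read whole genes, so the signals below cannot be assigned to a start, and a match describes the letters alone. Of these 4 genes, Adcy7 and Pde8a were higher with TsSP and Pde4b and Pde4a were lower, so the genes with the core motif did not move in 1 direction.

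Adcy7 codes for adenylyl cyclase 7, a cAMP-producing enzyme known to be prominent in blood cell lineages. Its log2 signal was 10.30, 10.77 and 10.70 on the 3 TsSP arrays, against 9.42, 9.59 and 9.55 on the arrays of LPS alone. With inulin it was 10.44, 10.61 and 10.44 on the arrays with TsSP, against 9.93, 9.51 and 9.46 on those without. Every array with TsSP was above every array without it, and the first inulin array was the highest of those without. How many of all genes had their arrays apart in this way was not counted. RNA was measured in bulk, so more RNA per cell and more cells with the transcript cannot be told apart.

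Adcy7 was thus 2.10-fold higher with TsSP than with LPS alone, a log2 difference of 1.07 (SE 0.16, 95% interval 0.716 to 1.427, adjusted p = 0.000682, limma with Benjamini-Hochberg adjustment over all 19505 genes). With inulin in both groups the rise was 1.81-fold (log2 difference 0.86, adjusted p = 0.00313). Cells given inulin and TsSP were 1.96-fold above LPS alone (adjusted p = 0.00129). Each of the 3 calls was made in all 19 alternative analyses, with adjusted p no higher than 0.0165 in any of them.

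Pde4b codes for a cAMP-specific phosphodiesterase that is known from mice lacking it to be needed for the full tumour necrosis factor response to LPS. Its log2 signal was 13.64, 13.65 and 13.67 on the TsSP arrays, against 14.35, 14.37 and 14.32 on those of LPS alone. In cells given inulin it was 13.80, 13.74 and 13.75 on the arrays with TsSP, against 14.27, 14.26 and 14.32 on those without. The 6 arrays with TsSP ran from 13.64 to 13.80 and the 6 without it from 14.26 to 14.37, so a gap several times wider than the spread within any group separated them. The share of all genes with such a separation was not counted.

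Pde4b fell 1.61-fold with TsSP, a log2 difference of -0.69 (SE 0.095, adjusted p = 0.000363). With inulin in both groups it fell 1.43-fold (log2 difference -0.52, SE 0.095, adjusted p = 0.0026). Cells given inulin and TsSP were 1.50-fold below LPS alone (adjusted p = 0.00118). These calls too were made in all 19 alternatives.

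Pde4a, a second gene of the same rolipram-sensitive phosphodiesterase subfamily, had a log2 signal of 8.15, 7.70 and 8.05 on the TsSP arrays, against 8.16, 9.21 and 8.75 on those of LPS alone. Among the inulin groups it was 8.00, 8.24 and 8.15 on the arrays with TsSP, against 8.53, 8.52 and 8.61 on those without. Replicate 1 of LPS alone was as low as the arrays with TsSP, and the other 5 arrays without TsSP were all higher than the 6 arrays with it.

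Pde4a was 1.67-fold lower with TsSP (log2 difference -0.74, SE 0.22, adjusted p = 0.0399), but only 6 of 19 alternatives kept that call, with adjusted p between 0.00318 and 0.147. Of the 12 fits without 1 array, that without replicate 1 of LPS alone kept it, with a difference of -1.01 and the adjusted p of 0.00318, and that without replicate 2 of LPS alone gave -0.49 with 0.13. In the presence of inulin the log2 difference was -0.42 with an adjusted p of 0.259, and no alternative made a call. Inulin and TsSP against LPS alone gave -0.58 with an adjusted p of 0.107, and 0.00849 without replicate 1 of LPS alone.

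Pde8a codes for a cAMP-specific phosphodiesterase of high affinity that rolipram does not inhibit. Its log2 signal was 11.20, 11.26 and 11.47 on the TsSP arrays, against 10.75, 10.82 and 10.92 on those of LPS alone. With inulin it was 11.51, 11.41 and 11.39 on the arrays with TsSP, against 10.70, 11.00 and 11.01 on those without. The 6 arrays with TsSP were again all above the 6 without it, with a narrower gap than for Adcy7 or Pde4b. Here too the share of all genes was not counted.

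Pde8a rose 1.39-fold with TsSP (log2 difference 0.47, SE 0.13, adjusted p = 0.0218), 1.45-fold with TsSP in the presence of inulin (log2 difference 0.54, adjusted p = 0.0121), and 1.52-fold with both over LPS alone (log2 difference 0.61, adjusted p = 0.00555). The call for TsSP against LPS alone was kept in 14 of 19 alternatives, and its adjusted p was 0.0924 without replicate 3 of TsSP, 0.0658 without replicate 1 of LPS alone and 0.0564 without replicate 2 of LPS alone. The call in the presence of inulin was kept in 18 of 19, with an adjusted p of 0.055 without replicate 1 of inulin.

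Pde3b codes for a phosphodiesterase that hydrolyses cAMP and is inhibited by cGMP. Its log2 signal was 7.11, 7.00 and 7.25 on the TsSP arrays, against 6.78, 6.57 and 6.78 on those of LPS alone. In cells given inulin it was 7.11, 7.47 and 7.11 on the arrays with TsSP, against 6.92, 6.74 and 7.12 on those without. The groups did not overlap without inulin and overlapped with it.

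The TsSP difference of Pde3b was 0.41 (SE 0.15, adjusted p = 0.082) and, in the presence of inulin, 0.30 (adjusted p = 0.213), and neither passed the threshold. Inulin and TsSP against LPS alone was called, at 1.43-fold higher (log2 difference 0.52, adjusted p = 0.0302). That call was kept in 10 of 19 alternatives. It was 0.33 with an adjusted p of 0.16 after quantile normalization, and the adjusted p was 0.0509 without replicate 1 of LPS alone, 0.101 without its replicate 2, 0.0531 without its replicate 3 and 0.113 without replicate 2 of inulin and TsSP.

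Pde7a, which codes for a cAMP-specific enzyme known from lymphocytes, had a log2 signal of 7.76, 7.73 and 7.56 on the TsSP arrays, against 7.84, 6.98 and 6.99 on those of LPS alone. Among the inulin groups it was 7.52, 7.34 and 7.85 on the arrays with TsSP, against 7.25, 6.97 and 6.97 on those without. Replicate 1 of LPS alone was higher than all 3 TsSP arrays, while the other 5 arrays without TsSP lay below all 6 arrays with it.

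For Pde7a the TsSP difference was 0.41 (adjusted p = 0.261), and 0.70 with an adjusted p of 0.0171 without replicate 1 of LPS alone. In the presence of inulin it was 0.50 (SE 0.22, adjusted p = 0.169), and the adjusted p was 0.043 without that array. Replicate 1 of LPS alone is in neither group there, and the difference stayed at 0.50. Leaving it out changed only the spread shared by the 4 groups and the adjustment over genes. Inulin and TsSP against LPS alone gave 0.30 (adjusted p = 0.439), and the adjusted p was 0.0395 without replicate 1 of LPS alone. Quantile normalization left the gene uncalled, with an adjusted p of 0.725 for TsSP against LPS alone.

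Sik1 codes for a salt-inducible kinase that holds CRTC coactivators in the cytoplasm and is itself a known CREB target. Its log2 signal was 7.00, 7.46 and 6.94 on the TsSP arrays, against 6.52, 6.60 and 5.61 on those of LPS alone. With inulin it was 7.32, 6.92 and 7.10 on the arrays with TsSP, against 7.00, 6.18 and 6.41 on those without. Sik1 was close to background: 2 of 3 arrays of LPS alone and 2 of 3 arrays with inulin but no TsSP were above it. The groups did not overlap without inulin and overlapped with it.

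Sik1 was at least 1.59-fold higher with TsSP (fitted log2 difference 0.89, SE 0.28, adjusted p = 0.0494), and 7 of 19 alternatives kept the call, with adjusted p from 0.0191 to 0.191. Without replicate 1 of LPS alone it was 1.03 (adjusted p = 0.0525). Without replicate 3 of LPS alone, its lowest array, the difference was 0.57 (adjusted p = 0.163). In the presence of inulin the log2 difference was 0.58 (adjusted p = 0.214), with no call in any alternative. Inulin and TsSP against LPS alone gave 0.87 (adjusted p = 0.0557).

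Creb1 codes for CREB, which is controlled mainly by phosphorylation, a change that the array does not measure. Its log2 signal was 11.28, 11.31 and 11.31 on the TsSP arrays, against 11.38, 11.73 and 11.42 on those of LPS alone. In cells given inulin it was 11.22, 11.20 and 11.47 on the arrays with TsSP, against 11.29, 11.48 and 11.72 on those without. The TsSP arrays lay narrowly below those of LPS alone, and the groups with inulin overlapped. The differences were -0.21 (SE 0.14, 95% interval -0.53 to 0.11, adjusted p = 0.392) and -0.20 (adjusted p = 0.443), and neither was called in any alternative.

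Over the 8 genes, TsSP against LPS alone gave 3 called higher, where 11.0% of all 19505 genes were, and 2 called lower, where 7.08% of all genes were, in all 5 of 8 beside 18.1% of all genes. With 1 array left out, 2 to 4 of the 8 were called: 2 (Pde4b and Adcy7) without replicate 3 of TsSP, 4 without replicate 1 of LPS alone or replicate 1 or 2 of inulin, and 3 without any of the other 8 arrays. The median difference of the 8 genes was 0.41, against 0.02 over all genes. For 7 of the 8 genes, Pde7a being the exception, the 3 arrays with TsSP and the 3 with LPS alone did not overlap, as for 32.7% of all genes. All 8 genes were above background on every array of at least 1 group. Among the 9022 genes of that kind, 34.9% were called and 55.3% did not overlap.

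TsSP in the presence of inulin gave 2 called higher, beside 8.66% of all genes, and 1 lower, beside 7.99%, in all 3 of 8 beside 16.7% of all genes. The groups did not overlap for 5 of 8 genes, beside 32.7% of all genes. Among the genes above background 32.4% were called and 54.0% did not overlap, so these counts for the 8 genes lie near those of genes above background. Inulin and TsSP against LPS alone gave 3 higher (10.3% of all genes) and 1 lower (7.30%), in all 4 of 8 beside 17.6%. An F test over the 4 groups called 3 of 8, Pde4b (adjusted p = 0.000345), Adcy7 (0.000577) and Pde8a (0.00885), beside 18.7% of all genes. Without replicate 1 of LPS alone it called 5, Pde4a and Pde7a being the others.

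The comparison of TsSP with LPS alone and that of inulin and TsSP with inulin share no array. All 8 genes differed in the same direction in both, 5 upward and 3 downward, though only Adcy7, Pde4b and Pde8a were called in both. How many of all genes kept their direction, or were called in both, was not counted. In the fit both comparisons also take their spread from the same 12 arrays. The plot of TsSP differences sets the intervals of both comparisons side by side.

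**Figure D2:**
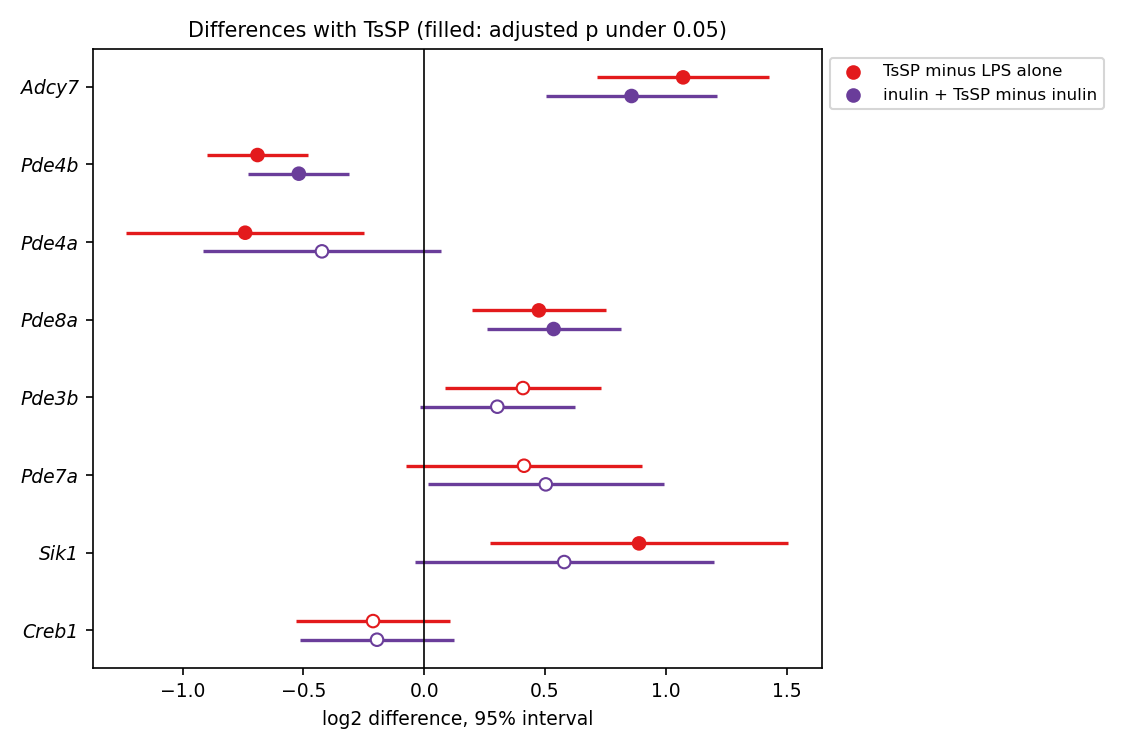
Log2 differences with 95% intervals (horizontal axis) for 8 genes, for TsSP minus LPS alone (red) and inulin with TsSP minus inulin (purple); filled points have an adjusted p under 0.05 in limma and open points do not. Adcy7, Pde8a and Pde4b are filled in both comparisons, and Pde4a and Sik1 in the first alone.

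The calls for Adcy7 and Pde4b were made in all 19 alternatives, whereas those of Pde4a and Sik1 crossed the threshold under many of them. The plot of adjusted p by setting shows this for each gene.

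**Figure D3:**
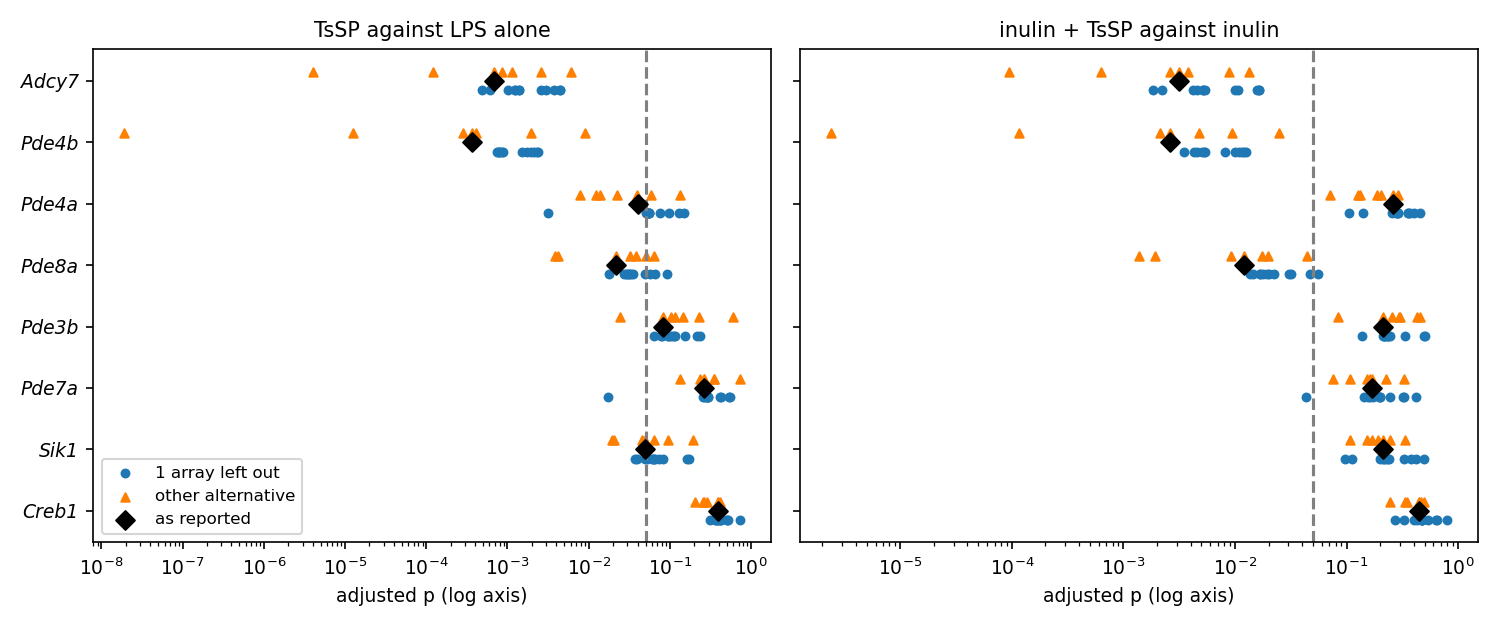
Adjusted p (horizontal log axis) of 8 genes in limma for TsSP against LPS alone (left) and inulin with TsSP against inulin (right); black diamonds are the reported values, blue points leave out 1 array each, orange triangles are the 7 other alternatives, and the dashed line is 0.05. Adcy7 and Pde4b stay left of the line in both panels, and Creb1 stays right of it.

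No gene was called for inulin. Inulin against LPS alone called 0 of 8 genes with limma, beside 0% of all genes, and 0 of 8 had an unadjusted p under 0.05, beside 5.86% of all genes. The largest difference was that of Sik1, 0.29 (95% interval -0.33 to 0.91), and the smallest adjusted p was 0.912. For Pde4b, the gene with the narrowest interval, the difference was -0.06 (95% interval -0.27 to 0.15), and for Adcy7 it was 0.11 (-0.24 to 0.47). The groups did not overlap for 1 of the 8 genes, Pde4b, as for 10.2% of all genes.

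Inulin added to TsSP likewise called 0 of 8 with limma, beside 0% of all genes, and 0 of 8 had an unadjusted p under 0.05, beside 4.98% of all genes. The largest difference there was 0.16 for Pde4a (95% interval -0.33 to 0.65), with a smallest adjusted p of 0.993. The interaction, which asks whether the TsSP difference changed with inulin, called 0 of 8 with limma beside 0% of all genes, and 0 of 8 had an unadjusted p under 0.05, beside 5.58% of all genes. Its values were 0.17 for Pde4b (95% interval -0.12 to 0.47), -0.21 for Adcy7 (-0.72 to 0.29) and 0.32 for Pde4a (-0.38 to 1.01), and the smallest adjusted p was 0.966. With 3 arrays a group these intervals leave room, for several genes, for changes as large as their own difference for TsSP against LPS alone. For Sik1 the interval for inulin against LPS alone was -0.33 to 0.91, beside a TsSP difference of 0.89. The intervals of Adcy7, Pde4b and Pde8a did not reach the size of their TsSP difference. The plot of inulin differences shows all of these intervals.

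**Figure D4:**
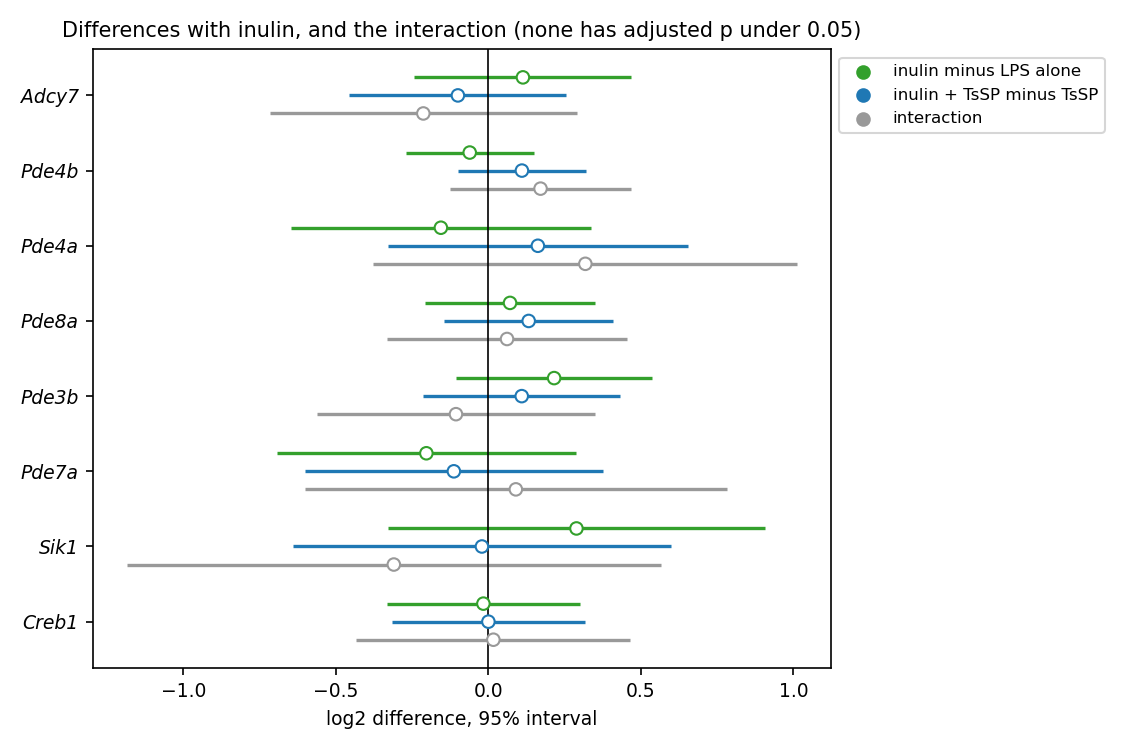
Log2 differences with 95% intervals (horizontal axis) for 8 genes, for inulin minus LPS alone (green), inulin with TsSP minus TsSP (blue) and the interaction (grey). All points are open because none had an adjusted p under 0.05 in limma, and all 24 intervals include 0.

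Other genes of the pathway were read from lists written from general knowledge of it, and counted in the same fit. The lists are no independent support, since earlier results of these data were known when they were written. The plot of the other pathway genes gives every one of them for TsSP against LPS alone.

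**Figure D5:**
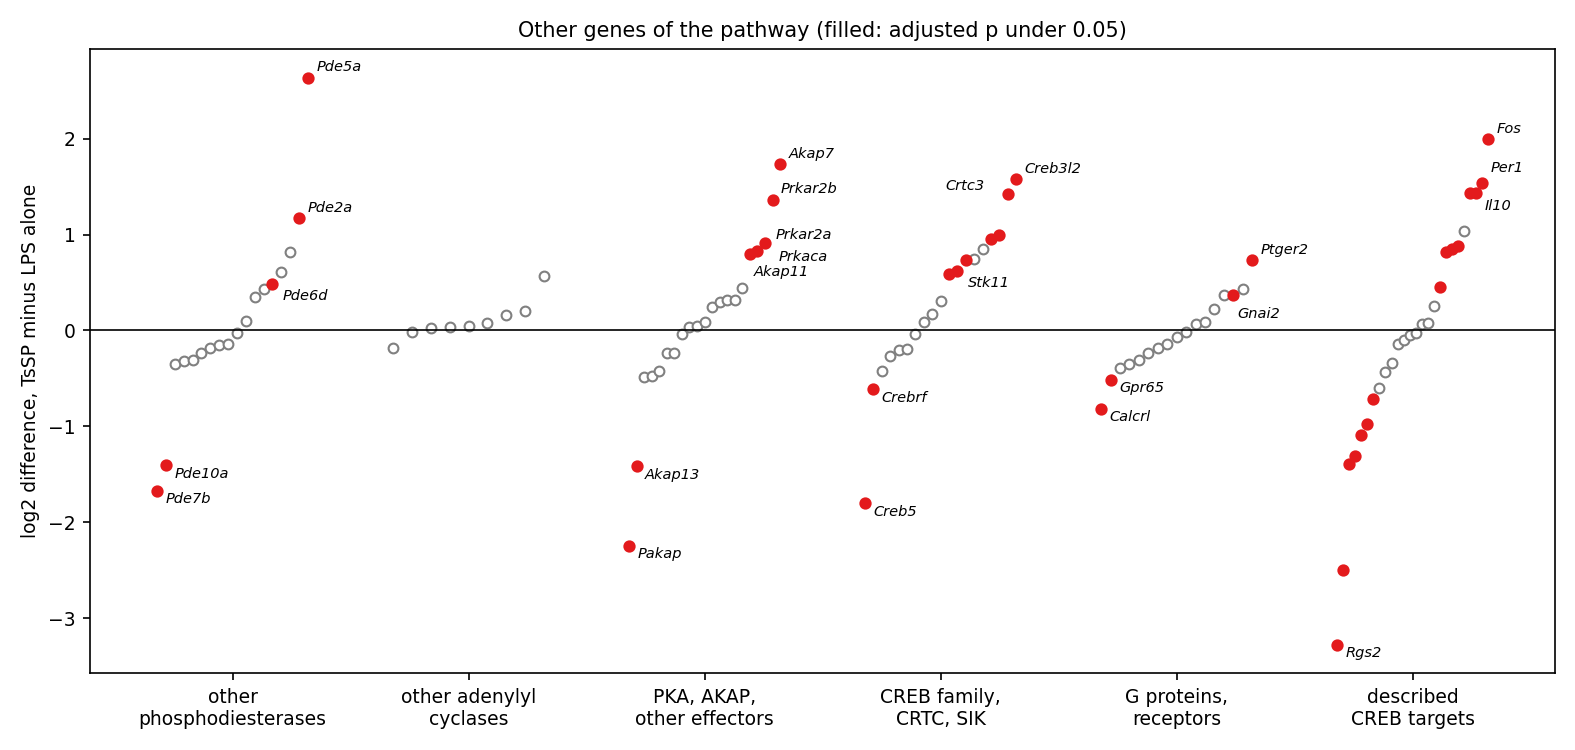
Log2 difference of TsSP minus LPS alone (vertical axis) for the other measured genes of 6 pathway lists, ordered by value within each list (horizontal axis). Filled red points have an adjusted p under 0.05 in limma. Genes named in the text are labelled, except Hdac7 and Pkig. The other adenylyl cyclases have no filled point, and the described CREB targets have filled points on both sides of 0.

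Of 18 other phosphodiesterase genes measured, 3 rose and 2 fell with TsSP, 27.8% of the list, beside 18.1% of all genes and 34.9% of genes above background. The median of the list was -0.08, against 0.02 over all genes, and 6 of the 18 were above background in a group. Pde5a, a cGMP-specific enzyme, had a log2 signal of 8.77, 8.41 and 8.79 on the TsSP arrays, against 5.77, 6.31 and 5.98 on those of LPS alone, of which 1 was above background, and was at least 5.32-fold higher (adjusted p = 3.1e-05). Pde2a, which hydrolyses cAMP and is stimulated by cGMP, was 2.25-fold higher (adjusted p = 0.000896). Pde6d, a carrier of prenylated proteins despite its name, was 1.40-fold higher (adjusted p = 0.0175, and 0.121 after quantile normalization).

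The phosphodiesterases that fell were Pde10a and Pde7b. Pde10a, which acts on cAMP and cGMP, had a log2 signal of 11.84, 11.65 and 11.55 on the TsSP arrays, against 13.04, 13.19 and 13.03 on those of LPS alone, and was 2.65-fold lower (adjusted p = 2.79e-05). Pde7b, the cAMP-specific relative of Pde7a, was 3.18-fold lower (adjusted p = 0.000221). With inulin in both groups 2 of the 18 rose and 2 fell, 22.2% of the list beside 16.7% of all genes and 32.4% of genes above background. Pde5a was at least 5.36-fold higher, Pde2a 1.72-fold higher, Pde10a 2.15-fold lower and Pde7b 3.32-fold lower, and Pde6d was not called (log2 difference 0.25, adjusted p = 0.231). With Pde4b, Pde4a and Pde8a, the phosphodiesterase genes called for TsSP against LPS alone thus moved in both directions.

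None of the 9 other adenylyl cyclase genes was above background on all arrays of any group, and 0 of 9 were called with limma (smallest adjusted p = 0.267). Adcy7 was the adenylyl cyclase gene measured above background in these cells.

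Of 21 cAMP effector genes, protein kinase A subunits and anchors among them, 5 rose and 2 fell with TsSP, 33.3% of the list beside 18.1% of all genes and 34.9% of genes above background, with a list median of 0.08. Prkaca, the gene of a catalytic subunit of protein kinase A, was 1.78-fold higher (adjusted p = 0.00075), and its log2 signal was 11.97, 11.84 and 11.85 on the TsSP arrays, against 10.89, 11.18 and 11.09 on those of LPS alone. Prkar2a, the gene of a regulatory subunit, was 1.88-fold higher (adjusted p = 0.00221). Prkar2b, another regulatory subunit gene, was called higher (adjusted p = 0.00119) while below background on all arrays of both groups, so no fold is given.

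Among the genes of anchoring proteins, which hold protein kinase A in place, Akap7 was at least 2.94-fold higher (adjusted p = 0.00198) and Akap11 1.74-fold higher (adjusted p = 0.0369). Akap13 was 2.66-fold lower (adjusted p = 0.0238). The listed Akap2 was matched as a synonym to Pakap, a gene with several probe sets. The brightest of them was at least 3.51-fold lower (fitted log2 difference -2.25, adjusted p = 1.11e-05). With the mean of its probe sets the difference was -1.09, so they did not all fall as far. Which transcript the brightest one reads was not tested. Akap11 lost its call in 9 of 19 alternatives (adjusted p = 0.0772 without replicate 1 of LPS alone) and Akap13 in 4. With inulin present, 3 effector genes rose and 2 fell, 23.8% of the list beside 16.7% of all genes and 32.4% of genes above background. Prkaca was 1.81-fold and Prkar2a 1.81-fold higher, Pakap was at least 3.34-fold lower, and Pkig, an inhibitor of protein kinase A named after its value was seen, was 1.33-fold lower. Prkar2b was the other gene called higher and was below background on all arrays of both groups. The other 3 named anchoring protein genes were not called with inulin present: the log2 difference was 0.61 for Akap7 (adjusted p = 0.229), 0.27 for Akap11 (adjusted p = 0.534) and -0.89 for Akap13 (adjusted p = 0.155).

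Of 19 genes of the CREB family, its coactivators, the salt-inducible kinases, their activating kinase and histone deacetylases that they phosphorylate, 7 rose and 2 fell, 47.4% of the list, beside 18.1% of all genes and 34.9% of genes above background. The list median was 0.31, and 17 of the 19 were above background in a group. Hdac7, a histone deacetylase gene, was among those called higher (log2 difference 0.73, adjusted p = 0.0428) without being above background on all arrays of any group. Creb3l2, whose product is a membrane-bound factor of the endoplasmic reticulum, was 2.99-fold higher (adjusted p = 9.36e-05). Crtc3, the gene of a CREB coactivator that the salt-inducible kinases restrain, had a log2 signal of 9.59, 9.70 and 9.56 on the TsSP arrays, against 7.95, 7.92 and 8.71 on those of LPS alone, and was 2.68-fold higher (adjusted p = 0.000496). Stk11, which codes for LKB1, the kinase that activates the salt-inducible kinases, was 1.54-fold higher (adjusted p = 0.00109).

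Creb5, a gene of the ATF2 group of this family, fell 3.49-fold with TsSP (adjusted p = 2.11e-05), and Crebrf, whose product regulates CREB3, fell 1.53-fold (adjusted p = 0.0381, lost in 6 of 19 alternatives, and 0.127 without replicate 1 of LPS alone). With inulin present, 5 of the 19 rose and 1 fell, 31.6% of the list beside 16.7% of all genes and 32.4% of genes above background. Crtc3 was then 2.83-fold higher, Creb3l2 2.58-fold higher, Stk11 1.43-fold higher and Creb5 4.01-fold lower, and Crebrf was not called (log2 difference -0.24, adjusted p = 0.470).

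Of 17 genes of G proteins and receptors upstream of adenylyl cyclase, 2 rose and 2 fell, 23.5% of the list beside 18.1% of all genes and 34.9% of genes above background, with a list median of -0.07. Ptger2, the gene of a prostaglandin E2 receptor that raises cAMP, was 1.66-fold higher (adjusted p = 0.0129), and Gnai2, an inhibitory G protein subunit, 1.30-fold higher (adjusted p = 0.0311). Calcrl, a receptor subunit for calcitonin gene-related peptide, was 1.76-fold lower (adjusted p = 0.00579), and Gpr65, a proton-sensing receptor, 1.43-fold lower (adjusted p = 0.0391). The call of Gnai2 was lost in 8 of 19 alternatives (adjusted p = 0.0847 without replicate 1 of LPS alone), that of Gpr65 in 11, that of Ptger2 in 1 and that of Calcrl in none. Without replicate 2 of TsSP 1 gene of the list was called, and 2 without replicate 1 of TsSP or replicate 3 of LPS alone. With inulin present, 3 of the 17 were called, 17.6% of the list beside 16.7% of all genes and 32.4% of genes above background. Of the 17 genes, 9 were above background in a group. Ptger2 was 1.68-fold higher, Gnai2 1.31-fold higher and Calcrl 1.90-fold lower, and Gpr65 was not called (log2 difference -0.20, adjusted p = 0.464).

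Of 26 genes described elsewhere as CREB targets, 8 rose and 7 fell with TsSP, 57.7% of the list beside 18.1% of all genes and 34.9% of genes above background, with a list median of -0.03. In the presence of inulin 6 rose and 7 fell, 50% of the list beside 16.7% of all genes and 32.4% of genes above background. Il10, the gene of interleukin 10, had a log2 signal of 11.70, 11.65 and 11.55 on the TsSP arrays, against 10.06, 10.35 and 10.18 on those of LPS alone, and was 2.70-fold higher (adjusted p = 1.16e-05). Fos, an immediate early gene, was 4.00-fold higher (adjusted p = 1.19e-05), and Per1, a circadian clock gene, 2.91-fold higher (adjusted p = 1.62e-05). Rgs2, which codes for a regulator of G protein signalling, had a log2 signal of 9.04, 9.32 and 8.59 on the TsSP arrays, against 12.47, 12.41 and 11.91 on those of LPS alone, and was 9.71-fold lower (adjusted p = 1.07e-06). The described targets therefore did not move in 1 direction.

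In the inulin comparisons and in the interaction, 0 genes of the 6 lists were called with limma, beside 0% of all genes. For Rgs2 the fall in the presence of inulin was 15.9-fold, and the interaction was -0.71 (adjusted p = 0.859).

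The genes most like the 3 with the smallest p over the 4 groups were read by Pearson correlation of log2 signal over the 12 arrays, which share 4 treatments, and are a description. Those most like Pde4b were Enpp4, Cd69 and Cfb, each with r of 0.991. Those most like Adcy7 were Tmc6 (0.981), Sdhd (0.981) and Efhd2 (0.976). Those most like Pde8a were Rbpms2 (0.976), Pgrmc1 (0.975) and Dnajb9 (0.972).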

How the data were processed

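Biotin-labelled RNA of RAW 264.7 cells was hybridised to Affymetrix mouse arrays, per the labels. The table deposited by the authors lists log2 signals, 1 for each probe set on each array. That the base is 2 was inferred from their range (1.32 to 18.9). How the authors corrected background and normalized, and with which software, is not given in the sources used here, so any compression by that processing enters every fold. Values were used as deposited. Of 28846 probe sets, 19572 have 1 gene symbol. For 55 genes with several, the brightest was taken, leaving 19505 genes.

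A limma 3.58.1 model (R 4.3.3) gave each of the 4 groups a mean (8 residual and 3.35 prior degrees of freedom). Two-sided p-values were adjusted within each contrast over 19505 genes (Benjamini-Hochberg, threshold 0.05). Intervals are 95% intervals of limma, not adjusted for multiple tests. The number of arrays limits the precision. Where the dimmer group of a call was not above background on all its arrays, the fold is a bound, written as at least N-fold, for which dim signals were raised to the background level of their array. The fit was tested on simulated data.

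The 19 alternatives were quantile normalization, centring on array medians, a mean-variance trend, genes above background alone, the mean of a gene's probe sets, a replicate block, the compared groups alone, and leaving out each of the 12 arrays. The interaction had 18, since it needs all groups. The genes, lists and named-gene rule were chosen with earlier results of these data known. The rule names all listed genes, up to 4 genes of a pathway list by smallest adjusted p for TsSP against LPS alone (all where a count is 5 or fewer), and the 3 genes most correlated with each of 3 of the listed genes, leaving out predicted genes and near-identical copies. Hdac7 and Pkig were named outside this rule. Python 3.11.15 with matplotlib 3.10.9 was used for the plots.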

Additional observations from a re-analysis of the deposited data

How the results depend on the processing

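For TsSP against LPS alone 5 of the 8 genes were called, 3 after quantile normalization, 2 with the arrays of the compared groups alone and 2 to 4 with 1 array left out (2 without replicate 3 of TsSP). The F test over the 4 groups called 3, and 5 with a mean-variance trend, 6 among genes above background alone and 3 to 5 with 1 array left out (5 without replicate 1 of LPS alone). Over all 19505 genes it called 3655, and 4702 with the trend and 3512 without that array. Among the 9022 genes above background fitted alone it called 4397. TsSP in the presence of inulin called 3, and 2 to 4 with 1 array left out. Inulin and TsSP against LPS alone called 4, and 3 to 5. Of the G protein and receptor genes 4 were called, 2 with the compared groups alone and 1 to 4 with 1 array left out (1 without replicate 2 of TsSP). The list counts under alternatives were added after seeing the data. Arrays with the same replicate number did not visibly deviate together (correlations of -0.094 to 0.105, against -0.127 to 0.112 for different numbers). This shows no pairing by number, but such a check on values normalized in an unknown way cannot exclude one. With the replicate block 4 genes were called for TsSP against LPS alone, 3 for each of the other calls on TsSP and the F test, and 2 of the G protein and receptor genes. No TsSP difference of the 8 genes changed sign in any alternative. Uncalled differences with inulin did. With 1 array left out, inulin against LPS alone ran from -0.43 to 0.10 for Pde4a, -0.35 to 0.082 for Pde7a, -0.028 to 0.47 for Sik1, -0.13 to 0.092 for Creb1 and -0.036 to 0.20 for Adcy7. Inulin added to TsSP ran from -0.0084 to 0.18 for Pde3b, -0.25 to 0.00050 for Pde7a, -0.12 to 0.14 for Sik1 and -0.085 to 0.047 for Creb1, and was 0.060 for Sik1 after quantile normalization and -0.0094 for Creb1 with each array centred. The interaction ran from -0.20 to 0.24 for Pde7a, -0.041 to 0.14 for Pde8a, -0.49 to 0.0066 for Sik1 and -0.092 to 0.13 for Creb1, and was 0.047 for Pde3b after quantile normalization. The cause of these changes was not tested. Calls over all genes for TsSP against LPS alone ran from 2688 to 4283. Signal over background limits Sik1, Pde5a, Akap7 and Pakap, whose folds for TsSP against LPS alone are bounds. It also limits the 9 other adenylyl cyclase genes, Prkar2b and Hdac7, and only 6 of the 18 other phosphodiesterase genes were above background in a group.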
